A study of Homo sapiens with 6 samples.

Results

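The insulin-like growth factor (IGF) axis of these cells was followed through 10 genes of the 19469 in the count table: the IGF-like family gene IGFL1, the receptors IGF1R, IGF2R and INSR, the adaptors IRS1 and IRS2, and the binding proteins IGFBP2, IGFBP3, IGFBP4 and IGFBP6. They were chosen by gene symbol, and all 10 were found in the table. RNA came from L3.6pl, an established human pancreatic cancer line, grown in DMEM with serum, given no treatment and sorted by FACS into cells with surface L1CAM (labelled L1CAM_POSITIVE, here L1high, 3 libraries) and cells with little or none (labelled L1CAM_NEGATIVE, here L1low, 3 libraries). Both populations came from this one line, and the sample records write its name as L6.6pl while the titles write L3.6pl. The study's own table compares the 3 L1low libraries with L1high replicates 1 and 2, so log2 fold changes are given over these 5 libraries and then over all 6.

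IGF-I, IGF-II and insulin are secreted ligands that bind the tyrosine kinase receptors encoded by IGF1R and INSR. The activated receptors phosphorylate the docking proteins IRS1 and IRS2, which recruit PI3K and so feed AKT and MTOR signaling. The IGF binding proteins hold the IGFs outside the cell, and IGF2R, the cation-independent mannose 6-phosphate receptor, takes up IGF-II for degradation and has no kinase. IGFL1 encodes a small secreted protein of the IGF-like family, whose described receptor is IGFLR1 and not IGF1R or INSR.

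L1CAM, the sorting marker, stood at 84.0, 69.8 and 89.5 CPM (read counts relative to the scaled library total) in L1high replicates 1, 2 and 3 and between 17.7 and 23.7 in the 3 L1low replicates. The log2 fold change of L1CAM over the 5 libraries was -1.90 ± 0.12 (standard error), at an edgeR adjusted p of 3.7e-06, where the quasi-likelihood F test was adjusted by the method of Benjamini and Hochberg. Its exons share 439 bases with ENSG00000284987 on the same strand. Libraries held from 16334610 counts (L1high replicate 3) to 21064685 (L1high replicate 1). All 7 epithelial markers checked were in the table, with a summed level from 4542 to 5414 CPM per library. Of these, KRT19 rose (log2 fold change 0.69, edgeR adjusted p = 6.8e-05), EPCAM fell (-0.37, adjusted p = 0.013), and the other 5 were not called. Of 8 fibroblast markers, PDGFRA, PDGFRB, DCN, COL1A2 and FAP were not among the genes analysed here, while LUM, COL3A1 and ACTA2 together stood at 86.7 to 98.5 CPM in L1high and at 140 to 160 in L1low libraries. Nearly all of this sum was LUM, at 80.8, 89.8 and 78.1 CPM in L1high and 150, 147 and 129 in L1low libraries (edgeR adjusted p = 3.1e-04), while COL3A1 and ACTA2 were not called (adjusted p of 0.40 and 0.42). Of 6 immune and 4 endothelial markers, the table held CD68 (8.42 to 8.81 CPM in L1high and 9.37 to 11.3 in L1low) and PECAM1 (11.3 to 11.9 and 13.2 to 14.7). The part of these marker levels in the results was not tested. In RNA of a whole sorted population, fewer cells that express a gene and less RNA per cell cannot be told apart. Nothing in the labels says that replicates came from separate cultures or sorts, so p-values measure the spread between these libraries, which may be technical.

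L1low cells held less IGFL1 and more IRS1, IGFBP6, IGFBP3, IGFBP4 and IGF1R transcript than L1high cells. The mean level of IGFL1 was 2.75-fold higher in L1high cells, and those of IRS1 and IGFBP6 were 2.03-fold and 1.96-fold higher in L1low cells. INSR was lower in all 3 L1low libraries by a smaller margin, and IGF2R, IRS2 and IGFBP2 overlapped between the populations. The median log2 fold change of the 10 genes was 0.29 over the 5 libraries and 0.25 over all 6, beside 0.002 and -0.009 over all genes. These genes were proposed with earlier results of this comparison known, so their values are a description and no test is given for them. Of the 10, 6 were among the genes with an adjusted p under 0.05 (5 higher and 1 lower in L1low) in both fits. Of all genes, 7.57% were called over the 5 libraries (4.41% higher and 3.15% lower) and 7.95% over all 6 (4.58% higher and 3.37% lower). The count was 4 without L1high replicate 2 or L1low replicate 2, and also over all 6 libraries less L1high replicate 1. Levels in the 2 populations were fully apart in 7 of the 10, as they were in 28.8% of all genes. Nothing is read from these counts.

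**Figure D1:**
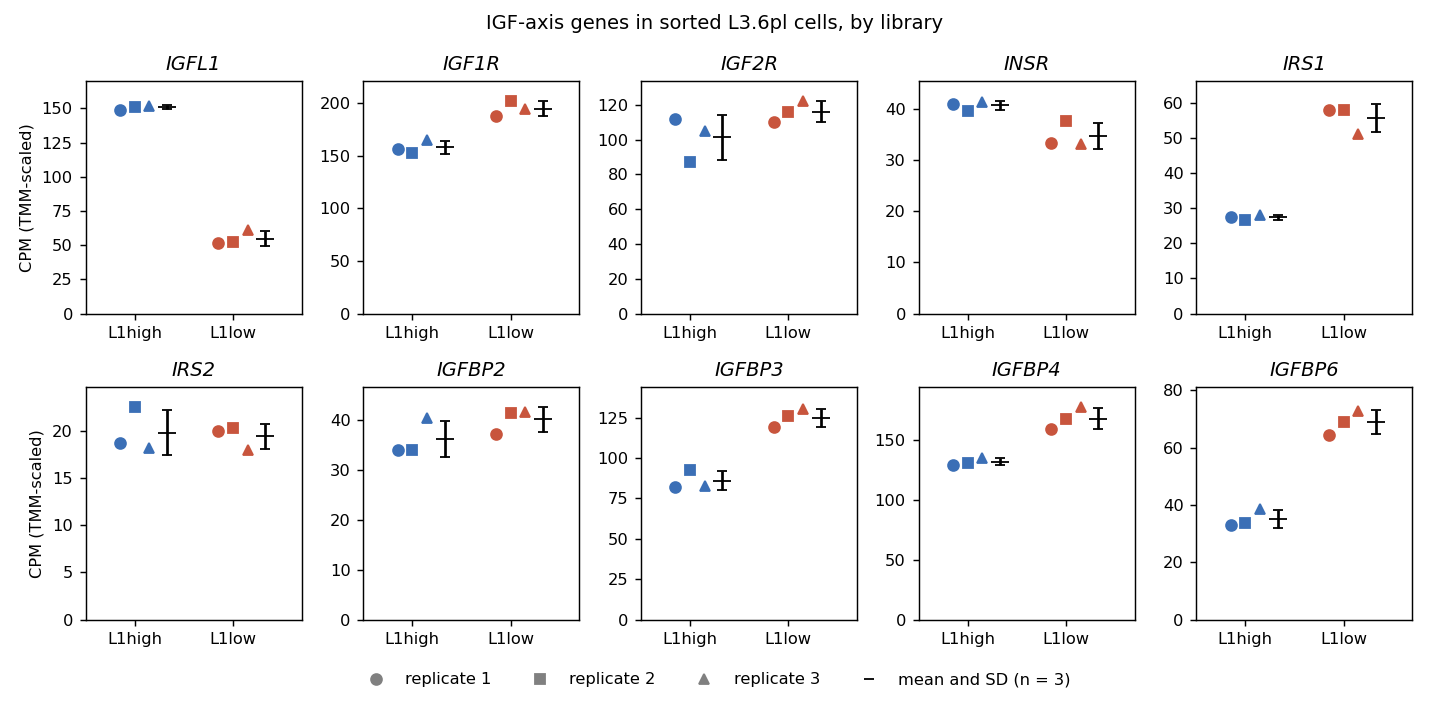
Level of each of the 10 genes in CPM (y axis, from 0) in the 3 L1high (blue) and 3 L1low (red) libraries, with a symbol per replicate and black marks for the mean and SD (n = 3). The L1high points of IGFL1 lie between 149 and 152 and its L1low points between 51.7 and 60.9, and those of IRS2 are interleaved.

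The promoters of 3 members are shown because IGFL1 was the 1 gene of the set among those called lower, and IRS1 and IGFBP6 had the largest differences in the other direction. Each runs from 250 bases before to 50 after the RefSeq start site on GRCh38.p14, 5′ to 3′ on the gene's strand, with every CG dinucleotide in capitals.
IGFL1, chr19:46229492-46229791, plus strand: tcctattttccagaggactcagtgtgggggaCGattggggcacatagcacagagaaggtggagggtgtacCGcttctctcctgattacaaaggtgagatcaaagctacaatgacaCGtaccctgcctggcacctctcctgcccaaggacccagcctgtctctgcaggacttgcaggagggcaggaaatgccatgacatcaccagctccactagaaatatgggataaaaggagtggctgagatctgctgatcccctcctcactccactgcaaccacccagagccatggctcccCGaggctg
IRS1, chr2:226799771-226800070, minus strand: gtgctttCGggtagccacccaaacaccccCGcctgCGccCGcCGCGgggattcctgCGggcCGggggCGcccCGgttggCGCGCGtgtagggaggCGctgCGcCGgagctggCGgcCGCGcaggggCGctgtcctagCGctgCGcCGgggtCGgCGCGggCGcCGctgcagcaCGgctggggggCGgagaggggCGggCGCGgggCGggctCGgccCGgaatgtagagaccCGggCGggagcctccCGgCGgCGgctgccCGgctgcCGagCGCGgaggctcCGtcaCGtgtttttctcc
IGFBP6, chr12:53097417-53097716, plus strand: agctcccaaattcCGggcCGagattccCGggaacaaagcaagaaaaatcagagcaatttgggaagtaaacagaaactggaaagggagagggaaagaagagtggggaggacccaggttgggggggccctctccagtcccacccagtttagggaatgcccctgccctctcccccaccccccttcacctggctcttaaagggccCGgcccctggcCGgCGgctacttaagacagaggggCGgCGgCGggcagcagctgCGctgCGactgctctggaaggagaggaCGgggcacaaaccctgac

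The window at IGFL1 holds 4 CG dinucleotides, that at IGFBP6 holds 12 and that at IRS1 holds 47, against a median of 14 over 35116 RefSeq promoters of this length. IGFL1 had the fewest of the 10 members, and 29.6% of all promoters have no more. The 5 receptor and adaptor genes IGF1R, IRS2, IRS1, IGF2R and INSR held 55, 50, 47, 41 and 36, and among the binding proteins IGFBP2 held 8, IGFBP4 30 and IGFBP3 36. The letters GGGCGG, the core of the GC box, were found on either strand in 9 of the 10 windows and in 45.0% of all promoters. IGFL1 was the member without them, which says only that these letters are not in this window. The RefSeq start lies 231 bases from the GENCODE gene start at IGFBP6 and 602 bases from it at IGFBP3, and coincides with it at the other 8. IGFBP2 has 3 RefSeq promoters, of which the 1 nearest the GENCODE gene start was used, and the other members have 1 each. These features were looked at after the expression values were seen and are a description.

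IGFL1 (ENSG00000188293, plus strand of chromosome 19 from 46229742 to 46231243 on GRCh38) stood at 149, 151 and 152 CPM in L1high replicates 1, 2 and 3 and at 51.7, 52.0 and 60.9 in L1low replicates 1, 2 and 3. These levels rest on 3160, 3107 and 2495 counts in the L1high and 940, 934 and 1078 in the L1low libraries. The L1high libraries lay within a few CPM of each other, and every L1low library was far below them. The mean was 151 ± 1.58 CPM in L1high and 54.9 ± 5.19 CPM in L1low cells (SD, n = 3 each). The log2 fold change was -1.44 (standard error 0.09) over the 5 libraries and -1.46 over all 6, and it ran from -1.52 to -1.40 over all settings tried. This ranked 25 from the lowest among the 17092 genes whose mean log2 CPM reached 1.

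IGFL1 lies in a cluster of related genes, and 2 other transcripts of this stretch were also lower in L1low cells. Within 250 kb of IGFL1 the table holds 10 further genes, of which 2 were called over the 5 libraries, both lower. Of all genes, 7.57% were called over these libraries, 3.15% lower, and nothing is read from the count of neighbours. ENSG00000269745, a long noncoding RNA on the opposite strand (46228964 to 46230388), runs across the start of IGFL1 and shares 95 exon bases with it. Its counts were 1025, 904 and 784 in the L1high libraries and 299, 287 and 312 in the L1low libraries. Its log2 fold change of -1.46 ± 0.10 (standard error) passed the test, at an edgeR adjusted p of 3.9e-06. Whether the counting used strand is not given in the sources used here, so reads of the shared bases cannot be told apart.

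The second, IGFL2-AS1 (minus strand, 46189029 to 46203160), fell from 126 ± 2.39 CPM in L1high to 88.3 ± 6.05 CPM in L1low cells (SD, n = 3 each), a log2 fold change of -0.49 at an edgeR adjusted p of 0.0029. IGFL1P1, a pseudogene of IGFL1 that lies 5′ of it, had a log2 fold change of 0.03 (standard error 0.23), with 8.09 ± 2.62 CPM in L1high and 7.39 ± 0.867 in L1low cells (SD, n = 3 each). IGFL4, at 2.11 ± 0.344 and 1.60 ± 0.409 CPM (SD, n = 3 each), had a log2 fold change of -0.25 (edgeR adjusted p = 0.65), and IGFL2 and IGFL3 were not among the genes analysed here. IGFLR1, the receptor described for this family, stood at 10.7 ± 1.07 CPM in L1high and 9.79 ± 1.05 in L1low cells (SD, n = 3 each), with a log2 fold change of -0.05 (edgeR adjusted p = 0.87). Its exons share 1202 bases with ENSG00000267120 on the same strand, so its level is uncertain. The neighbours of IGFL1 were examined after its values were seen.

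The genes whose log2 CPM followed IGFL1 most closely over the 6 libraries were MEFV, NOLC1 and SLCO3A1 (Pearson's r of 0.999 each), ABCC2 (0.998) and ENSG00000283411 (0.997), of 17022 compared. With 2 populations of 3 libraries a high r is common, and 353 genes (2.07%) lay above 0.95. SLCO3A1, an organic anion transporter gene, stood at 16.8, 17.7 and 17.4 CPM in L1high and at 7.60, 7.47 and 8.92 in L1low libraries. NOLC1, which encodes a nucleolar phosphoprotein, had a smaller difference, from 274 to 276 CPM in L1high and from 210 to 222 in L1low libraries.

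Of the receptors, IGF1R was higher and INSR lower in L1low cells, and IGF2R overlapped. IGF1R (chromosome 15 from 98648539 to 98964530), the main signaling receptor for the IGFs, stood at 156, 153 and 165 CPM in L1high and at 188, 202 and 194 in L1low replicates 1, 2 and 3. The lowest L1low library was above the highest L1high library. Its log2 fold change was 0.34 (standard error 0.07) over the 5 libraries and 0.30 (standard error 0.06) over all 6. IGF1R was called in 13 of the 17 settings tried. INSR (chromosome 19 from 7112255 to 7294414), the insulin receptor, stood at 41.0, 39.6 and 41.4 CPM in L1high and at 33.4, 37.6 and 33.2 in L1low libraries. The populations did not overlap, and the log2 fold change was -0.21 (standard error 0.10) and -0.23 (standard error 0.08), without a call in any setting.

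Because IGF1R and INSR products can pair into hybrid receptors, their ratio was taken within each library from levels per exon length. It was 2.95, 2.99 and 3.10 in the L1high and 4.37, 4.18 and 4.53 in the L1low libraries, a mean of 3.02 ± 0.0766 against 4.36 ± 0.175 (SD, n = 3 each). A ratio within a library does not depend on the scaling between libraries, and it did not overlap here. IGF2R (chromosome 6 from 159969082 to 160113507) stood at 112, 87.0 and 105 CPM in L1high and at 110, 116 and 122 in L1low libraries. L1high replicate 2 was its lowest library, and the log2 fold change of 0.23 (standard error 0.10) was 0.06 without it and 0.42 without L1high replicate 1. IGF2R was called in only 1 of the 17 settings tried. The pseudogene CHP1P2 shares 571 exon bases with IGF2R on the same strand, with a mean of 1.28 CPM or less in each population. The ratio of IGF1R to IGF2R per exon length overlapped, at 2.26, 2.84 and 2.55 in the L1high and 2.77, 2.84 and 2.58 in the L1low libraries.

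The adaptors went separate ways. IRS1 (minus strand of chromosome 2 from 226731312 to 226799820) stood at 27.6, 26.6 and 28.0 CPM in L1high and at 57.9, 57.9 and 51.1 in L1low libraries. The raw counts were 585, 546 and 460 against 1052, 1040 and 904. Every L1low library was far above every L1high library, with a log2 fold change of 1.05 (standard error 0.10) over the 5 libraries. It was 1.02 with all 6 and at most 1.11 in any setting. IRS2 (chromosome 13 from 109752695 to 109786583) stood at 18.7, 22.5 and 18.1 CPM in L1high and at 19.9, 20.3 and 17.9 in L1low libraries. The groups were interleaved, and the log2 fold change of -0.08 (standard error 0.12) turned to 0.06 without L1high replicate 2. The ratio of IRS1 to IRS2 per exon length was 1.20, 0.960 and 1.26 in the L1high and 2.37, 2.32 and 2.32 in the L1low libraries, so that transcripts of the adaptors were near parity in L1high cells and IRS1 led in L1low cells.

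**Figure D2:**
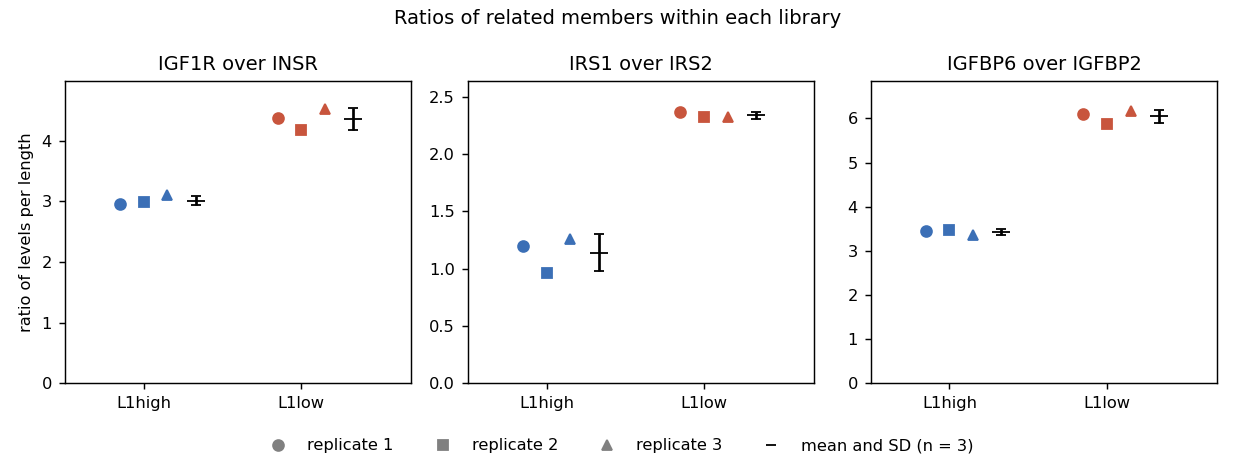
Ratio of the levels per exon length of IGF1R to INSR, IRS1 to IRS2 and IGFBP6 to IGFBP2 (y axes, from 0) in each library, with a symbol per replicate and black marks for the mean and SD (n = 3). In all 3 panels the L1low libraries (red) lie above the L1high libraries (blue), with means of 4.36 against 3.02, 2.34 against 1.14 and 6.04 against 3.42. Other ratios were taken and are not drawn. That of IGF1R to IGF2R overlapped between the populations, and those of IGFBP3 and IGFBP4 to IGFBP2 did not.

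Of the binding proteins, IGFBP6 differed most, IGFBP3 and IGFBP4 less, and IGFBP2 overlapped. IGFBP6 (chromosome 12 from 53097436 to 53102345), which prefers IGF-II, stood at 33.2, 33.6 and 38.6 CPM in L1high and at 64.5, 69.1 and 72.9 in L1low libraries. The mean was 35.1 ± 2.97 against 68.9 ± 4.21 CPM (SD, n = 3 each), and the log2 fold change was 1.05 (standard error 0.09) over the 5 libraries and 0.97 over all 6. L1high replicate 3 was the highest of its group, still far under the L1low libraries.

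IGFBP3 (chromosome 7 from 45912245 to 45921874), the main carrier of IGFs in serum, stood at 82.0, 92.6 and 82.9 CPM in L1high and at 119, 126 and 130 in L1low libraries, without overlap. Its log2 fold change was 0.53 (standard error 0.08) over the 5 libraries and 0.55 over all 6. IGFBP4 (chromosome 17 from 40443450 to 40457725), a binding protein that the protease PAPPA cuts to free IGFs, stood at 129, 131 and 135 CPM in L1high and at 159, 167 and 177 in L1low libraries. It did not overlap either, at a log2 fold change of 0.38 (standard error 0.08) and 0.35. Of the 17 settings tried, IGFBP4 was called in 13. IGFBP2 (chromosome 2 from 216632828 to 216664436) stood at 34.1, 34.1 and 40.4 CPM in L1high and at 37.3, 41.5 and 41.7 in L1low libraries. L1high replicate 3 lay among the L1low libraries, and the log2 fold change was 0.24 (standard error 0.10) over the 5 libraries and 0.15 over all 6.

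Per exon length, the 4 binding proteins together came to 108, 112 and 116 CPM per kb in the L1high and 154, 164 and 172 in the L1low libraries. Their make-up differed as well. IGFBP6 took 23.3% ± 1.18 of this sum in L1high and 31.4% ± 0.221 in L1low cells (SD, n = 3 each), IGFBP4 took 53.2% ± 0.786 and 46.6% ± 0.264, and IGFBP2 took 6.80% ± 0.467 and 5.19% ± 0.140. These shares did not overlap between the populations, while that of IGFBP3 did, at 16.8% in both.

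**Figure D3:**
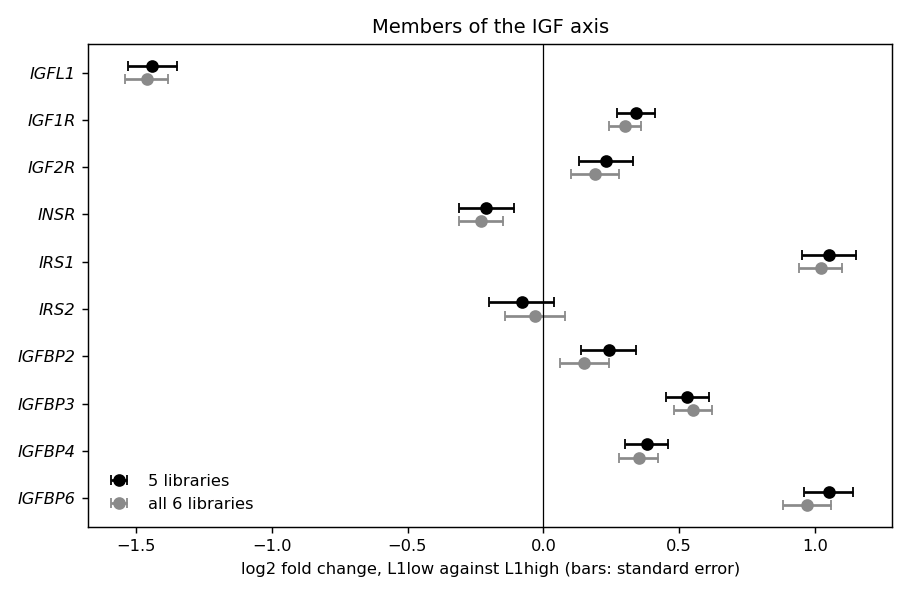
Log2 fold change of each of the 10 genes, L1low against L1high (x axis), over the 5 libraries (black) and over all 6 (grey), with bars of 1 standard error. IGFL1 stands alone near -1.44, IRS1 and IGFBP6 lie near 1.05, and the 2 fits differ by less than a standard error for most genes.

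Compared per exon length, IGFL1 was the most abundant of the 10 in L1high cells, at 193 ± 2.03 CPM per kb (SD, n = 3). IGFBP4 followed at 59.6 ± 1.33, then IGFBP6 (26.1), IGFBP3 (18.8), IGF1R (11.3), IGFBP2 (7.63), IGF2R (4.48), INSR (3.75), IRS1 (2.73) and IRS2 (2.43). Among L1high neighbours in this order, the ranges over libraries overlapped for IRS1 and IRS2. In L1low cells IGFL1 (70.5 ± 6.66) came level with IGFBP4 (76.0 ± 4.04), their ranges overlapping, and IRS1 (5.55 ± 0.396) moved up beside IGF2R (5.12 ± 0.269), again with overlap. With the longest transcript as the length, IGFBP3 (32.6) stood above IGFBP6 (29.9) in L1high cells, with overlapping ranges, so the order of these genes depends on the length used.

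**Figure D4:**
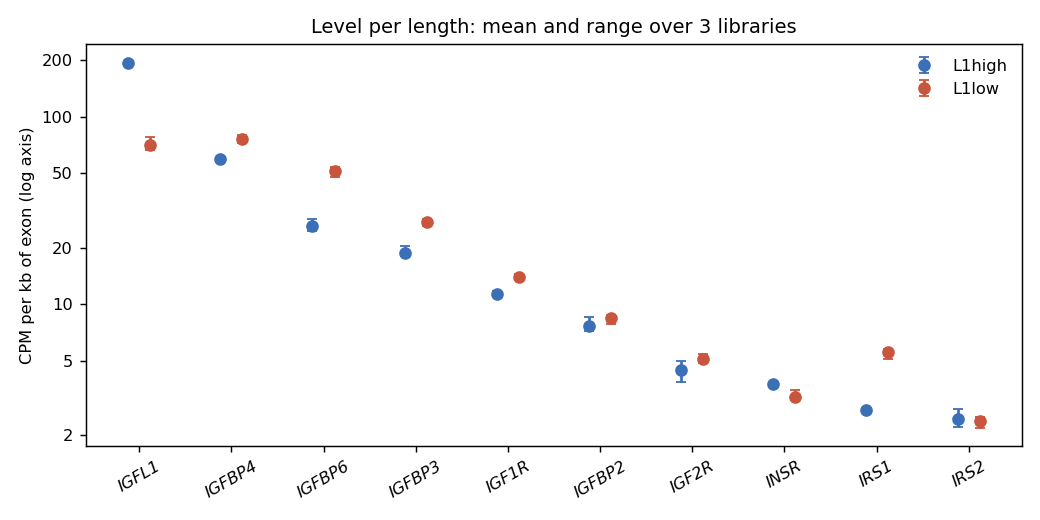
Level of the 10 genes in CPM per kb of merged exons (log y axis), ordered by their mean in L1high cells, with the mean (point) and the range over 3 libraries (bars) for L1high (blue) and L1low (red). IGFL1 goes from 193 in L1high to 70.5 in L1low, level with IGFBP4, and IRS1 from 2.73 to 5.55.

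The rest of the axis was followed through 117 further genes in 6 lists, of which the table holds 99. Of these, 13 were called over the 5 libraries, 10 higher and 3 lower in L1low cells, and 15 over all 6 (11 higher and 4 lower), with 12 called in both. Their median log2 fold change was 0.04, against 0.002 over all genes. For comparison, the called share of the whole table was 7.57% in the first fit (4.41% up and 3.15% down) and 7.95% in the second. The lists were drawn up after earlier results were known, and nothing is read from these counts or from those per list. The ligands IGF1, IGF2 and INS were not among the genes analysed here, nor were the binding proteins IGFBP1 and IGFBP5, the acid-labile subunit gene IGFALS, the insulin receptor-related gene INSRR or the proteases PAPPA and PAPPA2. Every gene of the table exceeds 1 CPM in at least 2 libraries, so levels under this limit cannot be assessed.

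Of 22 ligands and extracellular regulators the table holds 10, and IGFBP7 was the 1 called, with a median of -0.04 for the list. IGFBP7, a secreted protein related to the binding proteins with low affinity for IGFs, rose from 107 ± 7.67 CPM in L1high to 134 ± 3.66 CPM in L1low cells (SD, n = 3 each), a log2 fold change of 0.32 (edgeR adjusted p = 0.035). This call was lost without L1high replicate 1 (0.23), L1high replicate 2 (0.42) or L1low replicate 2 (0.32). It was also lost over all 6 libraries less L1high replicate 1, at 0.30 (edgeR adjusted p = 0.11). Its exons share 260 bases with POLR2B on the opposite strand. STC1 and STC2, the stanniocalcins that inhibit PAPPA, stood at 2520 ± 125 and 103 ± 3.19 CPM in L1high and at 2350 ± 63.1 and 106 ± 5.92 in L1low cells (SD, n = 3 each). Neither was called (edgeR adjusted p of 0.30 and 0.78). ADAM12, a metalloprotease that cuts IGF binding proteins, had a log2 fold change of -0.73 (edgeR adjusted p = 0.081) at 4.46 ± 0.795 and 2.92 ± 0.854 CPM (SD, n = 3 each), and was called without L1low replicate 2 (adjusted p = 0.045). HTRA1, ADAM9, ADAM28 and TMEM219 had log2 fold changes from -0.12 to 0.15, with adjusted p of at least 0.35 in edgeR's test.

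Of 26 receptor adaptors and feedback genes, 4 rose and none fell by the test, with a median of 0.05. SOCS3, a feedback inhibitor of cytokine and insulin receptor signaling, rose from 79.5, 72.8 and 85.1 CPM in the L1high to 127, 130 and 131 in the L1low libraries (log2 fold change 0.77, standard error 0.08, edgeR adjusted p = 7.1e-05). SHC1, an adaptor that links the receptors to RAS, rose from 419 ± 21.4 to 609 ± 23.1 CPM (SD, n = 3 each), by 0.58 on the log2 scale (edgeR adjusted p = 4.2e-04). Its exons share 335 bases with PYGO2 on the same strand, and its pseudogenes SHC1P1 and SHC1P2 held a mean of 98.0 and 87.3 counts. GRB7, an adaptor of the family of GRB10 and GRB14, rose by 0.46 (edgeR adjusted p = 0.0099). PTPRF, a receptor phosphatase that acts on the insulin receptor, had 0.39 over the 5 libraries (edgeR adjusted p = 0.013) and was not called over all 6 (0.29, adjusted p = 0.070). The calls of GRB7 and PTPRF were lost without L1high replicate 2 (log2 fold changes of 0.36 and 0.30) and without L1low replicate 2. PTPRF was also not called over all 6 libraries less L1high replicate 1 (0.29) or L1high replicate 2 (0.20).

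Of 34 PI3K-AKT-MTOR genes, 1 was called over the 5 libraries, and the median was 0.08. PIK3R1, the regulatory subunit p85 alpha that binds phosphorylated IRS proteins, rose from 11.7, 12.6 and 12.5 CPM in L1high to 19.6, 18.3 and 15.8 in L1low libraries (log2 fold change 0.57, standard error 0.13, edgeR adjusted p = 0.021). This call was lost without L1high replicate 1, L1high replicate 2 or L1low replicate 2, at 0.52 to 0.62. It was also lost over all 6 libraries less L1high replicate 1, at 0.51 (edgeR adjusted p = 0.078). Over all 6 libraries PIK3IP1 and FOXO3 were called as well. The catalytic subunits, the AKT kinases and MTOR itself were among the genes not called in either fit.

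Of 13 targets of FOXO factors, which insulin and IGF signaling keep out of the nucleus through AKT, 4 rose and 1 fell, and the median was -0.02. TXNIP, an arrestin that restrains glucose uptake, rose from 176, 184 and 180 CPM in L1high to 341, 331 and 321 in L1low libraries (log2 fold change 0.89, standard error 0.07, edgeR adjusted p = 1.2e-05). FBXO32, a ubiquitin ligase subunit, rose from 5.38 ± 1.16 to 9.58 ± 0.975 CPM (SD, n = 3 each), SESN3, a sestrin, from 25.8 ± 3.94 to 47.8 ± 8.40, and BCL6, a transcriptional repressor, from 43.2 ± 1.53 to 62.9 ± 3.42. Their edgeR adjusted p were 0.0019, 0.0037 and 0.0027. PDK4, a kinase that shuts down pyruvate dehydrogenase, fell from 25.2 ± 3.43 to 13.4 ± 3.42 CPM (SD, n = 3 each), at -1.01 ± 0.17 (standard error) in log2 and an edgeR adjusted p of 0.0025. PCK1, which encodes the rate-limiting enzyme of gluconeogenesis, had the lowest log2 fold change of the list, -1.30. Its edgeR adjusted p was 0.056 over the 5 libraries and 0.038 over all 6. PCK1 stood at 1.13, 1.75 and 1.28 CPM in L1high and at 0.661, 0.613 and 0.452 in L1low libraries. Its levels were thus near the 1 CPM limit of the table, and only the L1high libraries exceeded it. PCK1 entered the table through the population where it is higher, so its direction is tied to this limit and nothing is read from it. Without L1high replicate 2 the calls of SESN3 and PDK4 were lost, both at an adjusted p of 0.068 in edgeR's test, and so was that of SESN3 without L1high replicate 1 (0.056). FBXO32 was not called over all 6 libraries less L1high replicate 1, at 0.78 and an edgeR adjusted p of 0.058.

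Of the 5 genes in the table from the list headed mRNA-binding regulators, H19 alone was called. This heading describes the IGF2BP genes and not every gene of the list. H19, the imprinted noncoding RNA next to IGF2, stood at 2358, 2358 and 2526 CPM in L1high and at 1846, 2052 and 1944 in L1low libraries and fell by 0.27 on the log2 scale (edgeR adjusted p = 0.033). IGF2BP1, IGF2BP2 and IGF2BP3, which encode proteins that bind IGF2 mRNA, were not called. Of 11 mannose 6-phosphate sorting genes, partners of IGF2R, VPS29, a retromer subunit, fell by 0.30 (edgeR adjusted p = 0.039) and none rose. The calls of H19 and VPS29 were lost without L1high replicate 1 or 2 and without L1low replicate 1 or 2, with H19 at -0.31 to -0.23 and VPS29 at -0.32 to -0.27. VPS29 was also not called over all 6 libraries less L1high replicate 1 (-0.25) or L1high replicate 2 (-0.23).

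**Figure D5:**
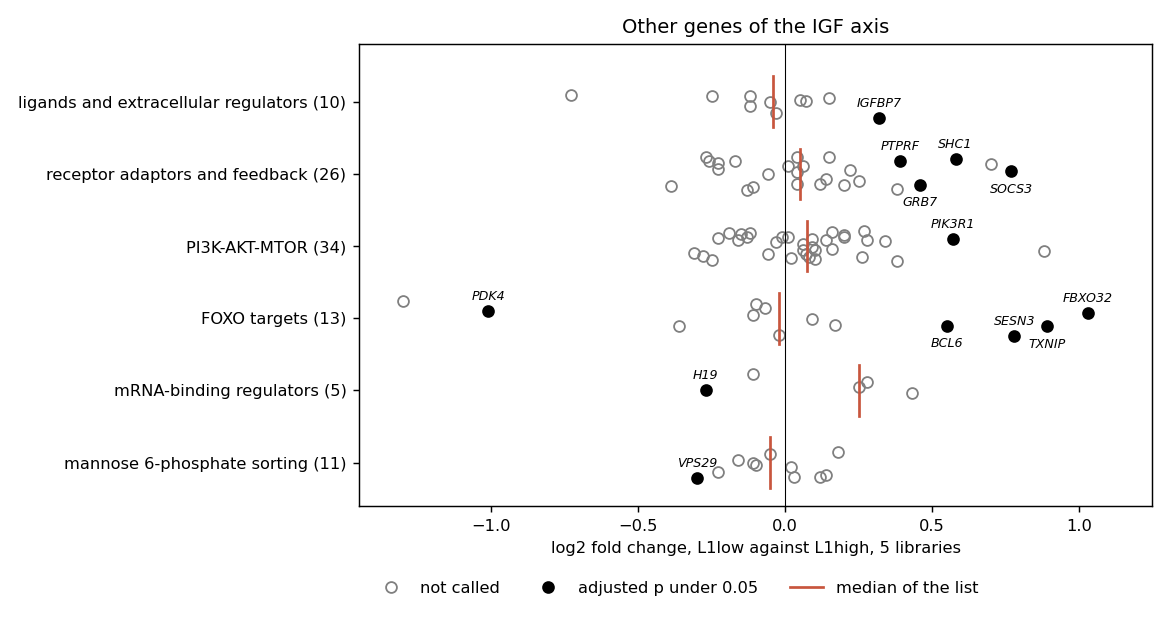
Log2 fold change over the 5 libraries (x axis) of the 99 further genes of the axis in 6 lists (rows, number of genes in brackets), filled and named where the adjusted p was under 0.05, with a red line at the median of each list. The called genes of the adaptor list lie to the right, from 0.39 to 0.77, those of the FOXO list on both sides, and the medians run from -0.05 to 0.25.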

How the data were processed

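The authors had paired-end reads of stranded mRNA libraries trimmed by the sequencing service, used BWA for alignment to GRCh38, and took gene counts by featureCounts from the Ensembl 94 annotation. What the authors deposited for the 6 libraries are these raw read counts, not normalized. Versions and strand options are not given in the sources used here, and the submitters' processing notes also name DESeq2. Symbols, coordinates and exon lengths came from GENCODE release 44, which matched 19344 of 19469 identifiers.

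Counts were tested in R 4.3.3 with edgeR 4.0.16 (limma 3.58.1): filterByExpr, TMM, and its quasi-likelihood F test. Genes were called where the Benjamini-Hochberg value was below 0.05. Each standard error is the log2 fold change divided by the square root of F. CPM used TMM factors over all 6 libraries, and log2 CPM a prior count of 2. Alternatives included DESeq2 1.42.0. Totals ran from 16334610 to 21064685, and the median standard error over all genes was 0.13. Data were simulated for the 5 libraries, with 200 of 19469 genes shifted by a log2 value of 1. Of these 200, 181 were recovered among 188 calls. Every simulated gene had the same spread between replicates (coefficient of variation 0.09) and no library was outlying. The result therefore checks the fit and does not measure how calls perform on the real libraries. Named genes were the 10 members, up to 5 called genes per list with the smallest p, and all extracellular regulators in the table; the antisense, neighbour and pseudogene entries, PCK1, PIK3IP1, FOXO3 and the IGF2BP genes were added after their values were seen. Members and lists were chosen with earlier results of these data known. No pair of libraries agreed within sampling noise.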

Additional observations from a re-analysis of the deposited data

How the results depend on the processing

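The 38 results were recomputed 594 times in all, of which 537 were kept. Tested genes were taken as kept where direction and call were unchanged, and members and their median where values stayed within the replicate spread. Counts of genes and of ranks were taken as kept within a fixed ratio of the main count, so a kept count can differ. Of the rest, 30 lost a call and 2, both of ADAM12, gained one. These 2 were without L1low replicate 2 (adjusted p = 0.045 in edgeR's test) and under the replicate block over all 6 (0.043). The others moved further or changed sign. The number of genes called was 1473, and it ran from 389 to 1649 when 1 of the 5 libraries was left out, lowest without L1high replicate 2, with 877 less L1high replicate 1 and 551 less L1low replicate 2. With all 6 libraries it was 674 without L1high replicate 1 and 1278 without L1high replicate 2. With 1 of the 5 left out, the median of the 10 members ran from 0.27 to 0.36. It was 0.25 over all 6 and 0.19 over all 6 less L1high replicate 2. The number of members higher in L1low cells was 7 or 8. The further axis genes called ran from 5 (without L1high replicate 2) to 14 when 1 of the 5 was left out, with 8 without L1low replicate 2. The sign changes were those of IRS2 (0.06 without L1high replicate 2, and 0.07 over all 6 less that library), IGFLR1 (0.02 less L1high replicate 1 and 0.01 less L1low replicate 1) and STC2 (-0.00052 without L1low replicate 2), and IGFLR1, STC2 and IRS2 were called in no setting. With 1 of the 5 left out, IGFLR1 ran from -0.14 to 0.02 and STC2 from -0.00052 to 0.09. The 17 settings refit the same libraries, and the members were chosen with earlier results known, so their ranges are a description. The log2 fold change ran from -1.52 to -1.40 for IGFL1, 0.93 to 1.09 for IGFBP6 and 0.44 to 0.62 for IGFBP3. It ran from 0.28 to 0.37 for IGF1R and 0.34 to 0.41 for IGFBP4, and was at most 1.11 for IRS1, always positive. IGF1R and IGFBP4 were each called in only 13 of the 17 settings, while IGFL1, IRS1, IGFBP3 and IGFBP6 were called in all 17. TXNIP, SOCS3, SHC1 and BCL6 were called in all 17. With L1low in place of L1high means, 5 of the 10 members had the same rank by level per length, and with the longest transcript 8 did. No gene of the 5 libraries failed the low-count filter, so running without it tests nothing.

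The replicate numbers were not taken as pairing: deviations from the group means correlated at 0.0743, 0.0906 and 0.208 between same-numbered libraries, although each library correlated best with its own number, a hint from the data and not the design. With the replicate block, 1799 genes were called over the 5 libraries and 2363 over all 6 (1548 without it), with 20 further axis genes over all 6. VPS29 lost its call under the block over the 5 libraries, at -0.28.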
